A study of Mus musculus with 5 samples.

Results

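The non-coding and host RNAs Rmrp, Rn45s, Malat1, Neat1, Miat, Snhg1, Snhg9, Snhg11, Gas5 and Mir22hg were followed through total RNA libraries of the mouse hippocampus. They were taken by name, 10 of the 23361 genes listed in each library. They had been chosen by their type and by their FPKM levels in these same libraries, with the differences of Rn45s and Snhg9 between the groups already known, so those levels and differences are given as descriptions.

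The libraries came from male mice aged 3 months. The control group held 2 libraries, titled WT, whose genotype label is Hdac1f/f, the floxed allele with no Cre named. The Hdac1 conditional knockout (cKO) group held 3 libraries of mice with the same floxed alleles and Nestin-Cre, a Cre line that removes the gene in neurons and astrocytes but leaves HDAC1, a histone deacetylase, in microglia. By these genotype labels all 5 libraries carry the floxed allele, and no group carries Nestin-Cre alone. Levels are FPKM, the fragments of a gene divided by transcript length in kilobases and by the mapped fragments of the library. In bulk tissue, fewer cells of a type and less RNA per cell cannot be told apart. The study describes the groups as 2 and 3 mice, while the labels do not tie each library to an animal.

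These RNAs belong to 3 kinds. Rmrp is the RNA component of RNase MRP, an enzyme that cuts the precursor of ribosomal RNA, and Rn45s is that precursor, transcribed by RNA polymerase I in the nucleolus. Malat1, Neat1 and Miat are long RNAs that stay in the nucleus: Malat1 gathers in speckles rich in splicing factors, Neat1 builds paraspeckles, and Miat (also called Gomafu) forms its own nuclear foci in neurons. Snhg1, Snhg9, Snhg11 and Gas5 carry small nucleolar RNAs (snoRNAs) that are cut from their introns and guide chemical modification of other RNAs, while the spliced host RNA itself is often removed by nonsense-mediated decay. Mir22hg is the host of the microRNA miR-22.

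The RNAs on which the values below turn are shown 5′ to 3′. For Rmrp, the most abundant row, the annotated gene spans mm9 chr4:43505660-43505930 on the minus strand, a single exon of 271 nt. Of these, 124 nt are also exonic in Ccdc107 on the opposite strand, so only the stretch chr4:43505660-43505771, the 112 nt at the 3′ end of Rmrp that Ccdc107 does not share, is printed.

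Rmrp: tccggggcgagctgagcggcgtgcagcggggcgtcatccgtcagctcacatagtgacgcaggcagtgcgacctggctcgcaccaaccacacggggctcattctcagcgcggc

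The snoRNA inside Snhg9 is Snora78 (chr17:24856621-24856748, minus strand, 128 nt), which lies wholly in the intron of its host. The snoRNA of Snhg1 listed in the files is Snord22 (chr19:8800356-8800481, plus strand, 126 nt). All 126 nt of it also fall in bases that a transcript of Snhg1 annotates as exonic. The capitals mark ACA before the last 3 bases of Snora78, the letters of the ACA box of its class, and CTGA 5 bases before the end of Snord22, the letters of the D box. On the annotated strand, ACA at that distance was found in 247 of the 1031 annotated genes named SNORA or Snora (24.0%), and CTGA within the last 12 bases in 302 of the 346 named SNORD or Snord (87.3%).

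Snora78: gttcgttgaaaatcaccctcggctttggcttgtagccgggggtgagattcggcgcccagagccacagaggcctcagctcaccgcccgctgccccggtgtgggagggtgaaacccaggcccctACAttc

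Snord22: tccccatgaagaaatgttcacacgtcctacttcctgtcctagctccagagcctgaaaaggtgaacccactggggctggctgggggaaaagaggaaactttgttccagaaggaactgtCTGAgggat

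The mature products of the microRNA in Mir22hg are given as RefSeq lists them (GRCm38.p6), with the seed, bases 2 to 8, in capitals.

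mmu-miR-22-3p: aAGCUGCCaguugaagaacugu

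mmu-miR-22-5p: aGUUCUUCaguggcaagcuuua

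The deleted gene was checked first. Hdac1 stood at 8.95 and 13.1 FPKM in control 1 and control 2, against 1.95, 3.12 and 3.37 FPKM in cKO 1, 2 and 3. Its log2 fold change was -1.66 (SE 0.21; limma, adjusted p = 0.219), and the groups did not overlap. The summed FPKM ran from 565363 to 636705 per library. Depth was estimated from the steps of the lowest FPKM values at 5140000 to 6770000 fragments. The estimates are approximate, resting on 28 and 38 genes in control 1 and cKO 1 and on 73 to 75 genes in the other libraries. Those steps also placed the libraries in 2 sets: control 1 and cKO 1 in set 1, and control 2, cKO 2 and cKO 3 in set 2. Neuron markers were detected in every library (summed FPKM of 15 genes 2880 to 3310), as were hippocampal neuron markers (15 genes, 585 to 661). Of 15 markers each of neurons, oligodendrocytes and microglia 0 were called, of 15 astrocyte markers 1, the water channel Aqp4 (higher, 0.78), and the groups were apart for 8 of the astrocyte (53.3%), 5 of the neuron (33.3%), 3 of the oligodendrocyte (20.0%) and 2 of the microglia markers (13.3%), beside 20.4% of all tested genes. Of 4 blood markers tested 1 was called, the globin gene Hba-a2 (higher, 2.32), while its copy Hba-a1 stood at -2.49 and the other 2 also below 0, and since counting can split fragments between near-identical copies the values of both are uncertain. Choroid plexus markers, which come from tissue beside the hippocampus, summed to 167, 7.12, 75.3, 607 and 25.3 FPKM in control 1, control 2, cKO 1, cKO 2 and cKO 3, and their part in the results was not tested.

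The 10 RNAs took 9.96% and 7.97% of the summed FPKM in the control libraries and 11.2%, 6.98% and 7.72% in the cKO libraries. The means were 8.96% ± 1.40 (SD, n = 2) and 8.63% ± 2.24 (SD, n = 3). The highest and the lowest libraries were both cKO, and the difference of -0.34 percentage points was below the pooled SD of 2.003. Almost all of this share was Rmrp. Without it, the other 9 RNAs took 0.903% and 0.673% of the summed FPKM in control 1 and control 2, against 0.521%, 0.181% and 0.321% in cKO 1, 2 and 3, with the groups apart. Rn45s made up most of that share. With Rn45s also left out, the groups were still apart as shares, but not as summed FPKM (631 and 584 in the controls, 626, 488 and 431 in cKO 1, 2 and 3), and the 8 remaining RNAs took 0.108% and 0.103% in control 1 and control 2, against 0.0983%, 0.0833% and 0.0741% in cKO 1, 2 and 3, most of it Malat1.

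**Figure D1:**
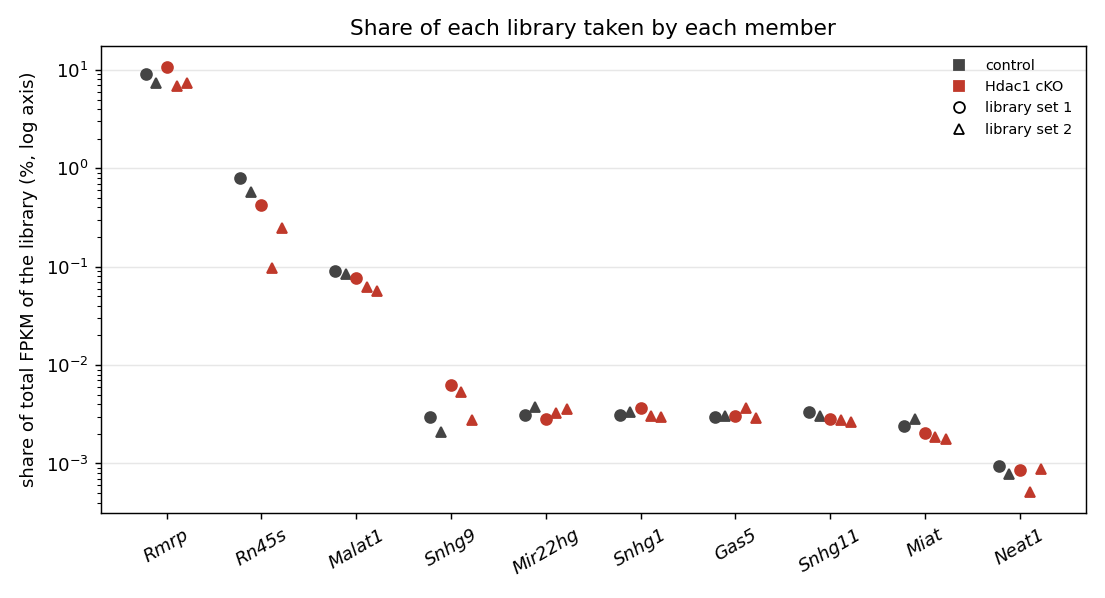
Share of the summed FPKM of each library taken by each of the 10 RNAs (log axis, percent), with 1 point per library, control in grey and Hdac1 cKO in red, and the shape giving the library set. Rmrp lies between 6.79% and 10.7%, Rn45s between 0.0977% and 0.795%, and the 7 RNAs after Malat1 each lie below 0.01%.

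A share of FPKM is not a share of fragments, because FPKM divides by transcript length and raises short RNAs. Multiplying each FPKM by the longest annotated transcript put Rmrp at 1.28% and 0.978% of the fragments in the controls and at 1.62%, 0.935% and 1.01% in the cKO libraries, among genes with an annotated length. Malat1, with a transcript of 6982 nt, came to 0.326% and 0.292% in control 1 and control 2, against 0.301%, 0.223% and 0.200% in cKO 1, 2 and 3. With the mean transcript length instead, Malat1 came to 0.131% and 0.118% in the controls and 0.121%, 0.0905% and 0.0809% in cKO 1, 2 and 3, and Rmrp to between 1.42% and 2.44%. By both lengths Rmrp exceeded Malat1 by less than by FPKM, and how much less depends on the length taken. These shares are approximate, since the deposited values divide by an effective length that is shorter than the annotated one, most of all for RNAs as short as Rmrp and Snhg9.

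Levels per length differed widely among the RNAs. Rmrp was first of all 23361 genes in every library. Rn45s ranked between 7 and 134, and Malat1 between 140 and 225. Mir22hg, Snhg1, Snhg9, Gas5 and Snhg11 had median levels of 17.3 to 19.2 FPKM, and the libraries of each overlapped those of the next, so their order was not resolved. Miat (median 13.0 FPKM) overlapped Snhg9 (it exceeded it in control 2) and, through its control 2 and cKO 3 of the other, Snhg11, and Neat1 (median 5.09 FPKM) lay below all the others in every library. The genes of highest mean level outside these 10 were Rpph1 (the RNA of RNase P, mean 33811 FPKM), the snoRNA Snora74a (9792 FPKM), Rprl3, an RNase P RNA-like gene (7285 FPKM), Snora44 (6048 FPKM) and Snord22 (4810 FPKM).

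Across all 12740 genes tested, 84 (0.659%) passed the call rule, a fold change of 1.5 with an unadjusted p of 0.05. The study names a fold change of 1.5 and a p of 0.05 and does not say whether its p was adjusted. Of the 10 RNAs, 2 passed the call rule, Rn45s on the lower side and Snhg9 on the higher side. Both were known to differ when the RNAs were picked, so nothing is read from that count. The groups did not overlap for Rn45s and Miat, both lower in cKO, beside 2600 of the 12740 genes (20.4%), which is about the same share. By limma none of the 10 had an adjusted p under 0.05 (1 of the 12740 genes did). An unadjusted p under 0.05 was found for 3, Rn45s, Snhg9 and Miat, beside 555 of all genes. Rn45s and Snhg9 were picked with their difference known. Miat did not reach that p without cKO 2 or without cKO 3 (limma, unadjusted p = 0.0571 and 0.0760). The log2 fold change was above 0 in 4 and below 0 in 6 of the 10, with a median of -0.07 beside 0.01 for all tested genes.

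**Figure D2:**
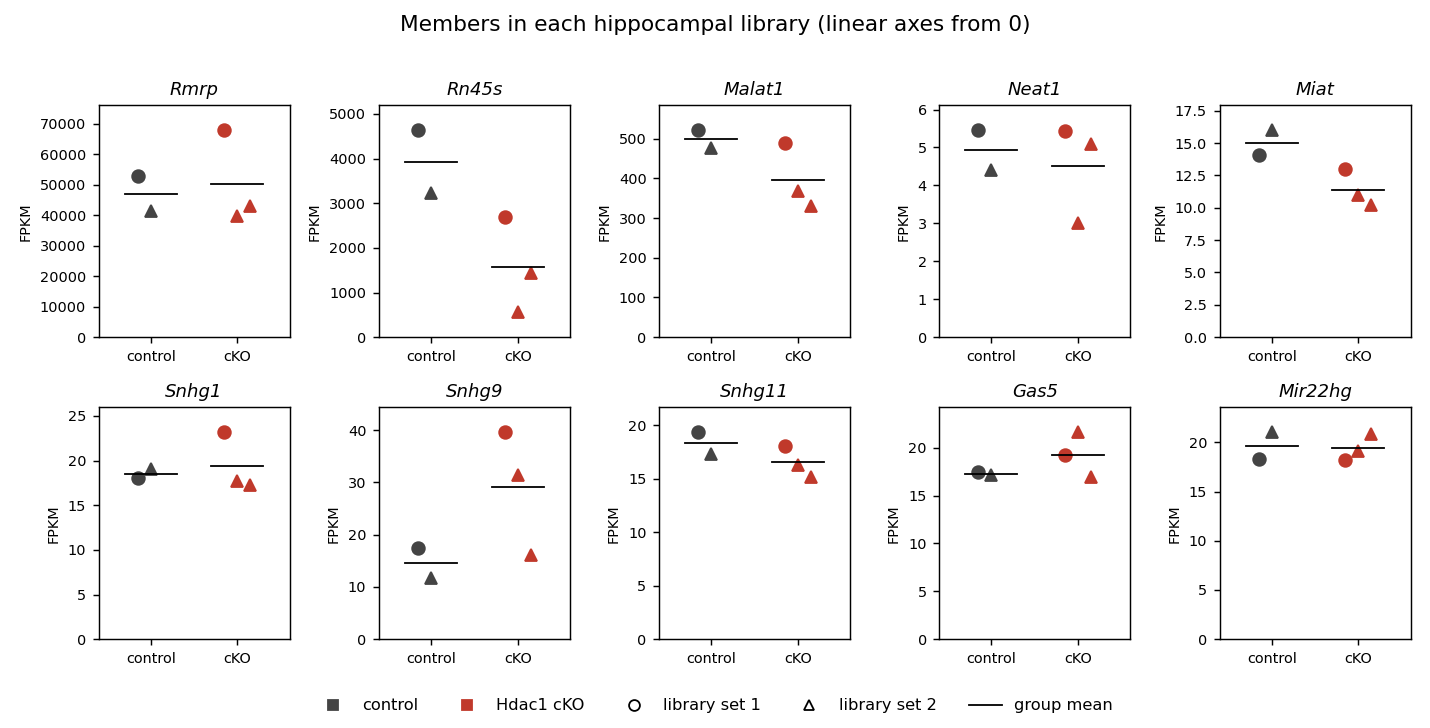
FPKM of each of the 10 RNAs in each library, on linear axes that start at 0. Grey points are the 2 control and red points the 3 Hdac1 cKO libraries, circles mark library set 1 and triangles set 2, and the line is the group mean. The groups are apart for Rn45s and Miat and overlap for the other 8.

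Rmrp did not differ between the groups beyond the spread of the libraries. It was listed at 52772 and 41261 FPKM in control 1 and control 2, against 67867, 39835 and 43087 FPKM in cKO 1, 2 and 3. The cKO group held both the highest and the lowest value, and the mean of the cKO libraries was 107% of the control mean. Its log2 fold change was 0.07 (SE 0.27, 95% interval -0.56 to 0.69; limma, adjusted p = 0.989), and within the sets it was 0.36 in set 1 and 0.01 in set 2. The 2 libraries of set 1 were the 2 highest. Set 1 exceeded set 2 by 0.56 on the log2 scale (SE 0.18; limma, adjusted p = 0.121), with means of 60319 and 41394 FPKM. Of 38 other short RNA genes tested, 31 were also higher in set 1, with a median difference of 0.45 beside -0.05 over all genes. Whether the set plays a part in the level of Rmrp was not tested.

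Rpph1, the sister RNA that shares most protein subunits with Rmrp, varied less. It stood at 32385 and 34497 FPKM in control 1 and control 2, against 36513, 31067 and 34593 FPKM in cKO 1, 2 and 3, and the sets differed by 0.05 on the log2 scale. The ratio of Rmrp to Rpph1 was 1.63 and 1.20 in control 1 and control 2, against 1.86, 1.28 and 1.25 in cKO 1, 2 and 3, so it was highest in the 2 libraries of set 1, one from each group. Among the 12 genes of RNase MRP and RNase P listed (Rpph1 and 11 proteins), 0 were called and 0 had an unadjusted p under 0.05, with a median log2 fold change of 0.04 and a lowest adjusted p of 0.955 by limma. After Rpph1, the most abundant were the subunits Pop5 (log2 fold change 0.03, SE 0.12) and Rpp21 (0.14, SE 0.16). Ccdc107, which shares 124 nt with Rmrp on the opposite strand, was listed at 26.6 to 40.7 FPKM. Whether counting used strand is not given, so fragments of the shared bases cannot be told apart.

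Rn45s was lower in cKO. Its levels were 4634 and 3220 FPKM in control 1 and control 2, against 2693, 573 and 1440 FPKM in cKO 1, 2 and 3, every cKO library below both controls. The cKO mean was 39.9% of the control mean, and the log2 fold change was -1.56 (SE 0.53; limma, adjusted p = 0.955). Both sets gave the same direction, -0.78 in set 1 and -1.82 in set 2. The cKO libraries also differed widely among themselves, from 573 FPKM in cKO 2 to 2693 FPKM in cKO 1. Choroid plexus marker RNA was highest in cKO 2, the lowest library for Rn45s, and second highest in control 1, the highest for Rn45s. Most of that marker RNA was Ttr, at 157 FPKM in control 1 and 589 FPKM in cKO 2. Its part in the level of Rn45s was not tested. The highest library held 8.09 times the FPKM of the lowest, beside a median of 1.32 times over 12718 tested genes that were above 0 in all libraries. Without control 1 the log2 fold change was -1.30 and the gene was no longer called, and without cKO 2 it was -0.97 and still called. Rn45s was picked with this difference known, so neither the call nor these refits are evidence for it. Whether ribosomal RNA was removed before sequencing, and how completely, is not given in the sources used here, so a level of Rn45s in these libraries may not be its level in the tissue.

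Rn45s corresponded to 0.463% and 0.322% of the mapped fragments per kilobase in the controls and to 0.269%, 0.0573% and 0.144% in the cKO libraries. The annotation used here has no entry of that name, so neither a length nor a share of fragments is given. Genes that make and process this precursor were examined beside it. Of 16 genes of RNA polymerase I transcription, 0 were called (median log2 fold change 0.02), and the one with an unadjusted p under 0.05 was Taf1b, a promoter selectivity subunit, at 10.7 and 13.4 FPKM in control 1 and control 2, against 15.1, 18.1 and 15.05 FPKM in cKO 1, 2 and 3 (log2 fold change 0.39; limma, adjusted p = 0.955). Of 30 genes of pre-rRNA processing and snoRNA protein complexes, 0 were called and 0 had an unadjusted p under 0.05 (median -0.01). The most abundant of these were Npm1, a nucleolar chaperone (0.08, SE 0.16), Nhp2l1, which binds snoRNAs (0.13, SE 0.09), and Nop10, a core protein of ACA box snoRNAs (-0.01, SE 0.10).

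Malat1 did not pass the call rule. It stood at 521 and 478 FPKM in control 1 and control 2, against 489, 368 and 330 FPKM in cKO 1, 2 and 3. cKO 1 lay between the controls, and cKO 2 and cKO 3 lay below both. The cKO mean was 79.2% of the control mean, with a log2 fold change of -0.35 (SE 0.16, 95% interval -0.73 to 0.02; limma, adjusted p = 0.955). The direction was the same within both sets, at -0.09 in set 1 and -0.45 in set 2, and set 1 exceeded set 2 by 0.33. Without cKO 3 the difference was -0.23 and without cKO 1 it was -0.52, neither of them called. With 13200 to 24400 estimated fragments per library, counting alone gave a coefficient of variation of 0.870% at the lowest, and the source of the spread between libraries was not tested.

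Neat1 lies 22036 nt from Malat1 on the same strand of chromosome 19 (Malat1 chr19:5795690-5802671, Neat1 chr19:5824708-5845478, minus strand, as annotated), yet its level was far lower. It was listed at 5.45 and 4.41 FPKM in control 1 and control 2, against 5.43, 3.02 and 5.09 FPKM in cKO 1, 2 and 3. Only cKO 2 fell below both controls, and the log2 fold change was -0.13 (SE 0.21, 95% interval -0.62 to 0.36; limma, adjusted p = 0.978). Without cKO 2 it was 0.08, and within the sets it was -0.0039 and -0.13. The ratio of Malat1 to Neat1 was 95.6 and 108 in control 1 and control 2, against 90.1, 122 and 64.9 in cKO 1, 2 and 3, with the cKO libraries on both sides of the controls.

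Miat was lower in every cKO library than in both controls, by a small amount. Its levels were 14.1 and 16.0 FPKM in control 1 and control 2, against 13.0, 10.95 and 10.2 FPKM in cKO 1, 2 and 3. The cKO mean was 75.9% of the control mean, a log2 fold change of -0.37 (SE 0.13, 95% interval -0.68 to -0.07; limma, unadjusted p = 0.0213, adjusted p = 0.955), which is under the fold change of 1.5. Within set 1 the difference was -0.10 and within set 2 it was -0.55. Miat is made mainly in neurons (chr5:112642248-112657968, minus strand). Of 15 neuron markers, 14 had a log2 fold change below 0 and 0 were called, with a median of -0.13, and their mean log2(FPKM + 1) was 6.66 and 6.82 in control 1 and control 2, against 6.59, 6.55 and 6.68 in cKO 1, 2 and 3. Of the 15 astrocyte markers, 10 were above 0, with a median of 0.13. The part of either list in the level of Miat was not tested.

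Genes that encode proteins of the bodies these nuclear RNAs occupy showed no called change in RNA level, and protein was not measured. Of 20 genes of paraspeckle proteins, 0 were called and 0 had an unadjusted p under 0.05 (median log2 fold change -0.07). The most abundant encode the RNA-binding proteins Hnrnpk at 0.04 (SE 0.10), Zfr at 0.08 (SE 0.11) and Hnrnph1 at 0.05 (SE 0.11). Of 20 speckle and splicing factors, 0 were called and 2 had an unadjusted p under 0.05 by limma, Srsf10 at 0.26 and Srrm1 at -0.30 (adjusted p = 0.955 for both). Among 15 other long non-coding rows tested, 1 was called, Rnu12, which makes the U12 spliceosomal RNA rather than a long RNA. It was listed at 479 and 686 FPKM in control 1 and control 2, against 1202, 799 and 771 FPKM in cKO 1, 2 and 3, with a log2 fold change of 0.66. Rnu12 also stands among the other structured small RNAs, of which 4 were tested, 1 was called and 6 more were listed at 0. There Terc, the RNA of telomerase, was at 8.76 and 8.24 FPKM in control 1 and control 2, against 22.7, 9.10 and 10.5 FPKM in cKO 1, 2 and 3 (log2 fold change 0.56, SE 0.32; limma, adjusted p = 0.955). The most abundant of these rows after Rnu12 were 2900097C17Rik (0.02, SE 0.10) and Rian, an imprinted RNA (-0.01, SE 0.10). Meg3, an imprinted neuronal RNA singled out after its values were seen, was 48.1 and 42.5 FPKM in control 1 and control 2, against 38.0, 33.6 and 31.5 FPKM in cKO 1, 2 and 3, a log2 fold change of -0.39 that stayed under the fold change of 1.5 (SE 0.12; limma, adjusted p = 0.955).

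**Figure D3:**
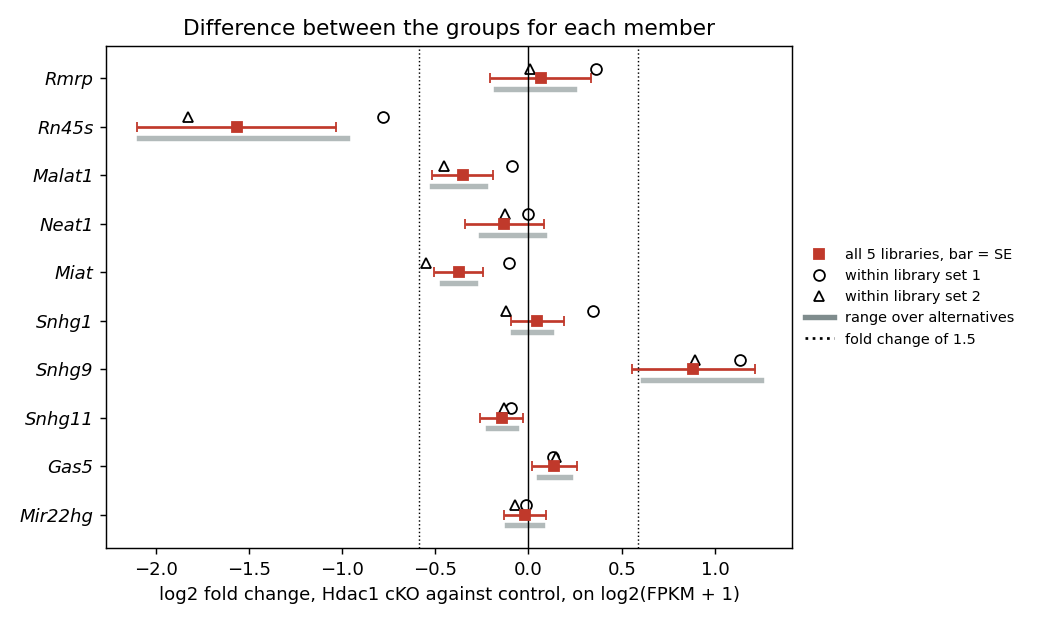
Log2 fold change of each of the 10 RNAs, Hdac1 cKO against control, on log2(FPKM + 1). Red squares with bars give the fit over all 5 libraries with its SE, open symbols the difference within each library set, the grey line the range over the alternatives tried, and dotted lines a fold change of 1.5. Rn45s at -1.56 and Snhg9 at 0.88 lie outside the dotted lines, the other 8 between -0.37 and 0.14.

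Snhg9 had the highest cKO mean relative to control, 199% of the control mean. It was listed at 17.5 and 11.7 FPKM in control 1 and control 2, against 39.6, 31.4 and 16.2 FPKM in cKO 1, 2 and 3. cKO 1 and cKO 2 lay above both controls, while cKO 3 lay below control 1, so the groups overlapped. The log2 fold change was 0.88 (SE 0.33), with 1.14 within set 1 and 0.89 within set 2. Snhg9 has only 183 exonic nt (chr17:24856476-24856910, minus strand), and its levels rest on an estimated 14.1 to 49.0 fragments per library, which the annotated length overstates for so short an RNA and for which counting alone gives a coefficient of variation of 26.6% at the lowest. It was no longer called without control 2, cKO 1 or cKO 2, with log2 fold changes of 0.61, 0.62 and 0.79. Of its exonic bases, 14 nt are shared with the opposite strand of Rps2, a ribosomal protein gene listed at 703 to 948 FPKM and not different between the groups (log2 fold change 0.03, SE 0.15; limma, adjusted p = 0.989).

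Its snoRNA passed the call rule on the higher side. Snora78, an ACA box RNA, stood at 2997 and 2953 FPKM in control 1 and control 2, against 6239, 3894 and 4462 FPKM in cKO 1, 2 and 3, and all cKO libraries lay above both controls. Its log2 fold change was 0.68 (SE 0.20; limma, unadjusted p = 0.00846, adjusted p = 0.955), which passed the call rule but not the adjustment. Without cKO 1 it was 0.49 and no longer reached a fold change of 1.5. Snora78 and its host did not rank the cKO libraries alike. cKO 3 was the lowest of the 3 for Snhg9 and the middle one for Snora78, and the ratio of Snora78 to Snhg9 was 172 and 253 in control 1 and control 2, against 158, 124 and 276 in cKO 1, 2 and 3, with the groups overlapping. The 2 rows share no exonic bases. Snora78 was 1 of 38 short RNA genes tested outside the 10. Of these, 29 had a log2 fold change above 0, with a median of 0.36 beside 0.01 for all other genes. Of the same 38, 31 were higher in set 1, with a median set difference of 0.45. The summed share of the 778 short RNA genes without Rmrp, Rpph1 and Rn45s overlapped between the groups. It was 9.93% and 8.58% in control 1 and control 2, against 13.0%, 10.1% and 9.04% in cKO 1, 2 and 3. Of the 38, 10 (26.3%) were called higher and 2 lower, beside 50 (0.393%) and 32 of all 12730 genes tested outside the 10. For 12 of the 38 (31.6%) every cKO library lay above both controls, beside 1401 of the 12730, and for 2 every cKO library lay below. None of the higher ones passed the adjustment by limma. The only gene of all 12740 that did was one of the lower ones, Snora30. It was listed at 426 and 1502 FPKM in control 1 and control 2 and at 0 in all 3 cKO libraries. The other lower one, Snora47, was at 38.5 and 35.7 FPKM in control 1 and control 2. In cKO 1, 2 and 3 Snora47 was at 0, 0 and 35.5 FPKM. Large SEs were found on both sides, as for Snora5c (-6.22, SE 2.82) and Snora31 (4.82, SE 1.89). What the zeros stand for was not tested. The higher ones include Snora21 (log2 fold change 0.88) and Scarna3a (1.06), which do not lie in any of the 5 hosts.

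Snhg1, which holds 8 annotated snoRNAs, did not differ between the groups beyond the spread. It was at 18.0 and 19.04 FPKM in control 1 and control 2, against 23.2, 17.7 and 17.2 FPKM in cKO 1, 2 and 3. cKO 1 was above both controls and the other cKO libraries below both, and the log2 fold change of 0.05 (SE 0.14, 95% interval -0.28 to 0.37; limma, adjusted p = 0.989) had opposite signs in the sets, 0.35 in set 1 and -0.12 in set 2. Snord22 inside it was at 3177 and 5105 FPKM in control 1 and control 2, against 5939, 5854 and 3974 FPKM in cKO 1, 2 and 3, a log2 fold change of 0.36 (SE 0.25; limma, adjusted p = 0.955). The Snord22 libraries overlapped, and in cKO 2 Snord22 lay above both controls while Snhg1, at 17.7 FPKM, lay slightly below both. The ratio of Snord22 to Snhg1 was 176 and 268 in control 1 and control 2. In cKO 1, 2 and 3 it was 256, 331 and 231, with the groups overlapping. Leaving out control 1 took the log2 fold change of Snord22 to 0.02, and leaving out control 2 took it to 0.70, which passed the call rule (limma, unadjusted p = 0.0309).

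**Figure D4:**
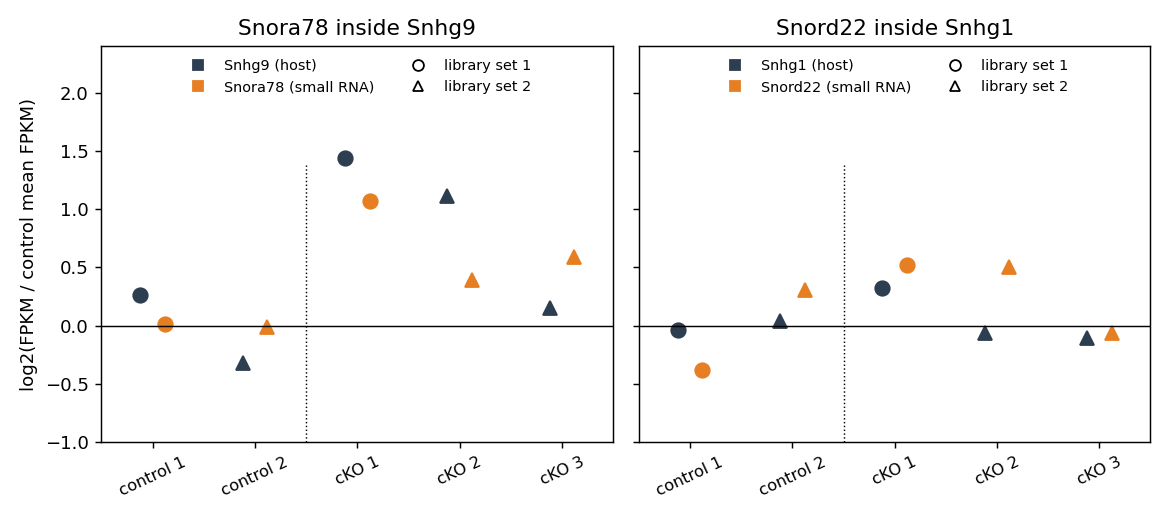
Level of Snhg9 with its snoRNA Snora78 (left) and of Snhg1 with Snord22 (right) in each library, as log2 of the FPKM over the mean of the 2 controls. Circles mark library set 1 and triangles set 2, and the dotted line parts control from cKO. Snora78 lies above both controls in all 3 cKO libraries, while Snhg9, Snhg1 and Snord22 each have a cKO library within or below the control range.

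Gas5 (chr1:162964553-162968670, plus strand) carries 9 annotated snoRNAs and is a classic target of nonsense-mediated decay. It stood at 17.4 and 17.2 FPKM in control 1 and control 2, against 19.2, 21.6 and 16.9 FPKM in cKO 1, 2 and 3. cKO 1 and cKO 2 lay above both controls and cKO 3 below both, giving a log2 fold change of 0.14 (SE 0.12, 95% interval -0.14 to 0.42; limma, adjusted p = 0.956), which was 0.056 without cKO 2 and 0.22 without cKO 3. The sets gave 0.13 and 0.15. Of 16 decay factors, 0 were called and 1 had an unadjusted p under 0.05, Magoh, a protein of the exon junction complex, at 43.5 and 37.9 FPKM in control 1 and control 2, against 48.0, 50.5 and 48.5 FPKM in cKO 1, 2 and 3 (log2 fold change 0.26; limma, adjusted p = 0.955).

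Snhg11, a host RNA abundant in neurons (chr2:158201374-158211881, plus strand), was at 19.3 and 17.3 FPKM in control 1 and control 2, against 18.1, 16.3 and 15.2 FPKM in cKO 1, 2 and 3. Only cKO 1 lay between the controls, and the log2 fold change was -0.14 (SE 0.12, 95% interval -0.41 to 0.12; limma, adjusted p = 0.955), with -0.09 and -0.13 in the sets, -0.068 without control 1 and -0.22 without control 2. Mir22hg (chr11:75275041-75280178, plus strand) was the most even of the 10, at 18.3 and 21.0 FPKM in control 1 and control 2, against 18.2, 19.2 and 20.8 FPKM in cKO 1, 2 and 3. Its differences within the sets were -0.012 and -0.070. Its highest library held 1.16 times the FPKM of its lowest, and the log2 fold change was -0.02 (SE 0.11, 95% interval -0.28 to 0.24; limma, adjusted p = 0.989). The annotation gives it 206 nt in common with Tlcd2 on the same strand, which was listed at 0.144 to 0.762 FPKM.

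The precursor row of miR-22 itself (95 nt) was listed at 0 in all 5 libraries, as was Snord47 (77 nt) inside Gas5. Of the 21 small RNA genes annotated inside the 5 hosts, 4 were listed, and only Snord22 and Snora78 were above 0, so no level is given for the others. Of 9 genes tested among the targets and neighbours of miR-22, 0 were called (median log2 fold change 0.0038). They included Rpa1, a neighbour that encodes a DNA-binding replication protein (0.08, SE 0.13), and the deacetylase Hdac4 (0.01, SE 0.10).

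Other snoRNA hosts were read from a list of their own. Of 36 tested, 27 had a log2 fold change above 0 and 9 below, with a median of 0.09 beside 0.01 for all genes. None was called, and for 12 of the 36 the groups did not overlap, 33.3% beside the 20.4% of all genes. Those with an unadjusted p under 0.05 were Snhg6 and Snhg10. Snhg6 was at 77.1 and 68.3 FPKM in control 1 and control 2, against 93.6, 85.2 and 97.8 FPKM in cKO 1, 2 and 3 (log2 fold change 0.34, SE 0.11; limma, adjusted p = 0.955), and Snhg10 had a log2 fold change of 0.43 (SE 0.14; limma, adjusted p = 0.955). The most abundant hosts were protein-coding, namely the chaperone Hspa8 (0.10, SE 0.20), the ribosomal protein gene Rpl13a (0.21, SE 0.10) and Rps2.

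Against the sets instead of the groups, 5 of the 10 RNAs did not overlap, Rmrp, Malat1, Neat1 and Snhg11 higher in set 1 and Mir22hg lower, beside 5108 of 12740 genes (40.1%). By limma none of the 10 had an adjusted p under 0.05 between the sets (0.105 to 0.968), beside 394 of all genes. An unadjusted p under 0.05 was found for 4 of the 10, beside 2912 of all genes (22.9%). Each set holds libraries of both genotypes.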

How the data were processed

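The authors prepared total RNA libraries (Illumina TruSeq Total RNA), sequenced them on a HiSeq instrument, aligned reads to UCSC mm9 with Tophat2 and deposited FPKM from Cufflinks 2.0.0, per the labels and the methods. Whether strand was used is not given in the sources used here. Groups and replicate numbers came from the titles. The 10 genes and all lists were chosen with earlier results of these data known. Named genes were the 10, Hdac1, the snoRNA and microRNA genes inside them, the 5 most abundant other genes, and of each list the called genes and up to 3 of highest mean FPKM; the list genes named only for an unadjusted p under 0.05 were chosen after their values were seen.

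Genes whose mean over the libraries reached 1 FPKM were tested on log2(deposited FPKM + 1) with limma 3.58.1 in R 4.3.3 (lmFit, eBayes with trend, two-sided) over all 5 libraries, with Benjamini-Hochberg adjustment over 12740 genes; this log2 scale understates changes of low genes. The fit was checked on simulated data. Gene models came from GENCODE vM1 (NCBIM37, the build of mm9), which matched 21209 of 23361 symbols (90.8%) and 9 of the 10 RNAs, Rmrp as RNase_MRP and Mir22hg as 2210403K04Rik. Estimated fragments multiply FPKM, length and estimated depth. Libraries were placed in one set where over 10% of genes under 0.3 FPKM had ratios inside one window of 0.05 log2 units. Coefficients of variation from fragments cover counting error only. Alternatives were the pseudocount, the filter, scaling, variance model, blocks and leaving out each library.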

Additional observations from a re-analysis of the deposited data

How the results depend on the processing

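Over the 149 refits of the 10 RNAs under other settings, 137 kept direction and side of the call rule, and the cause of the exceptions was not tested. Rn45s lost its call without control 1 (-1.30; range without one library -2.09 to -0.97). Snhg9 lost it without control 2 (0.61), cKO 1 (0.62) or cKO 2 (0.79; range 0.61 to 1.25). Differences near 0 changed sign. Rmrp was -0.0011 after scaling to a common total (TPM), -0.11 without control 2 and -0.17 without cKO 1 (range -0.17 to 0.24). Neat1 was 0.083 without cKO 2 (range -0.26 to 0.083). Snhg1 was -0.016 under TPM and -0.082 without cKO 1 (range -0.082 to 0.12). Mir22hg was 0.075 without control 2 and 0.024 without cKO 1 (range -0.11 to 0.075). Without one library Malat1 ran from -0.52 to -0.23, Miat from -0.47 to -0.29, Snhg11 from -0.22 to -0.068 and Gas5 from 0.056 to 0.22, none of them called. Snora78 was not called without cKO 1 (0.49), and Snord22 was called without control 2 (0.70); their alternatives were chosen after seeing the data.

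The count of 84 called genes became 1 by adjusted p, 142 with a pseudocount of 0.1, 43 with a minimum of 5 FPKM, and 92 to 231 without one library (152 without control 1, 231 without control 2, 148 without cKO 1). It split into 51 higher and 33 lower, but into 43 and 51 under TPM and 45 and 45 with a common total that leaves out short RNA genes. The count of 555 genes with an unadjusted p under 0.05 ran from 387 to 970 without one cKO library. It was 1190 with the library set as a block and 1430 with the replicate number as a block. The difference in the share of the 10 RNAs, -0.34 percentage points, ran from -1.62 to 0.65 without one library, and their share of fragments differed by -0.01 with the longest and 0.06 with the mean transcript length.

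With the replicate number as a block, which leaves cKO 3 out of the contrast because no control is numbered 3, 133 genes were called, and the log2 fold change of Snhg9 was 1.25 (limma, adjusted p = 0.0135), but with the library set as a block it was 0.998 (adjusted p = 0.425). Snhg9 was picked with this difference known, so neither p is evidence for it. No call among the 10 changed under either block. The deviations of same-numbered libraries correlated at 0.402 and 0.269. Libraries numbered 1 are both in set 1 and those numbered 2 both in set 2, while cKO 3 is in set 2. With 2 pairs and no label behind the numbers, the samples were not treated as paired. Of the 9 RNAs with an annotated length, Snhg9 had the fewest estimated fragments.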
